A study of Mus musculus with 18 samples.

Results

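The comparison described here is that of control hearts 5 days after ischemia/reperfusion (I/R) with control hearts after sham surgery, chosen from the sample labels as 3 arrays against 3, or 6 of the 18 arrays of the series. The controls are mice with both copies of Camk2g and Camk2d flanked by loxP sites and no Cre (Camk2g loxP/loxP; Camk2d loxP/loxP), called FFFF in the study and wild-type (noCre) in the labels, on a mixed 129/Sv and C57BL/6 background. The other 12 arrays are FFFF hearts 1 day after I/R and hearts of DKO mice, which carry the same alleles with α-MHC-Cre, active in cardiomyocytes, after sham surgery and 1 and 5 days after I/R, with 3 arrays a group. I/R was a ligation of the left anterior descending coronary artery for 60 min followed by reperfusion, and the labels place the I/R samples in the ischemic area of the left ventricle but the sham samples in left ventricular myocardium without naming an area, so that injury and the region sampled cannot be told apart. The labels give neither age nor sex and do not name the animal behind each array, and the error terms below measure only the spread between arrays within the groups of the series.

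After reperfusion of an infarct, dead muscle is cleared by phagocytes and replaced by scar. Neutrophils come first and are followed by monocytes that become macrophages, while resting fibroblasts divide and turn into myofibroblasts, contractile cells that secrete collagen and provisional matrix proteins. Surviving cardiomyocytes near the scar re-express fetal genes and lower the genes of fatty acid oxidation. In bulk tissue, fewer cells of a type and less RNA per cell cannot be told apart.

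Levels are log2 values after RMA, a difference of 1 is a 2-fold change of signal, and the 6 arrays range from 3.49 to 13.93 with a median of 4.85. Each level is that of one gene feature, and levels of different genes are not set against each other. Cardiomyocyte markers were near the top of the range in all 6 arrays, with Myh6, the α-myosin heavy chain, at 13.15, 13.23 and 13.39 in the sham arrays and 13.15, 12.67 and 12.23 at 5 days. Defining markers of skeletal muscle (Myh4), lung (Sftpc) and fat (Adipoq) had sham means of 3.95, 4.19 and 3.87, below the array median. Camk2g, one of the deleted genes, read 7.20, 6.96 and 6.997 in FFFF sham and 5.46, 5.72 and 5.87 in DKO sham hearts, and Camk2d read 9.68, 9.64 and 9.85 and 9.17, 9.27 and 9.10, so that both were lower on every DKO sham array. Neither difference passed the test between the sham groups over all features. The sources used here do not say where the probes lie relative to the deleted exons. By Xist and 4 Y-linked transcripts, the 3 sham hearts were female, as were the 3 hearts at 1 day, and at 5 days replicates 1 and 2 were male and replicate 3 was female.

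Of 24479 features, 4475 passed an adjusted p of 0.05 at 5 days against sham (18.3%), of which 2022 rose (8.26%) and 2453 fell (10.0%). Rises were larger than falls. Among the called features, 275 rose and 68 fell at least 4-fold, 81 rose and 3 fell at least 8-fold, and 27 rose and 0 fell at least 16-fold. Without replicate 2 or 3 of the 5-day arrays 2206 and 1942 features were called, without sham replicate 1 or 2 2852 and 2476, and in a fit of the 6 arrays alone 1027. Of 166 called genes chosen for naming, 96 kept their call in all 6 fits with 1 of these arrays left out and 43 in only 1 or 2.

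Among called features whose groups did not overlap, the largest rise was that of Sprr1a, a small proline-rich protein of the cornified envelope that cardiomyocytes and neurons make under stress. Its level was 4.10, 4.05 and 4.08 in the sham arrays and 11.04, 12.02 and 11.84 at 5 days, a rise of 7.56 ± 0.80 on the log2 scale (SE, n = 3 arrays a group; adjusted p = 0.000151). Here and below the SE rests on a variance shared by all 6 groups, so that it is not the spread of the 2 compared groups. The SD of Sprr1a was 0.02 in sham hearts, 0.52 at 5 days and 2.02 at 1 day. For Gpnmb, described below, it was 3.04 at 5 days and 0.72 at 1 day. All 3 arrays at 5 days were far above all 3 sham arrays, and the 2 groups did not overlap in 8128 features (33.2%). Of the 15 largest of these rises, 12 belong to the gene lists described below, and most of these encode matrix proteins or macrophage proteins. Of the 15 largest falls, 2 do.

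Genes of the extracellular matrix rose in nearly every case. Of 19 collagen genes, 19 rose, by a median of 2.69 on the log2 scale, where the median over all features was -0.02. Col1a1, a chain of type I collagen and the main fibril of scar, read 8.28, 8.08 and 8.06 after sham surgery and 12.04, 13.15 and 13.02 at 5 days. It rose by 4.60 ± 0.42 (adjusted p = 6.5e-05), and the lowest 5-day array was well above the highest sham array. Col3a1, the type III collagen of young scar, rose by 4.41 ± 0.43. Col12a1 and Col5a2, whose products sit on or in collagen fibrils, rose by 4.34 ± 0.40 and 4.07 ± 0.36.

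Matricellular proteins and glycoproteins, which bind cells and growth factors rather than carry load, moved with the collagens. Of 30 genes, 28 rose and the median was 2.83. The 2 that did not pass, named after their values were seen, were Dcn and Ccn1, with differences of 0.68 and 1.03. Postn, periostin of activated fibroblasts, read 7.52, 7.81 and 7.88 after sham surgery and 12.40, 13.26 and 12.93 at 5 days. The rise of 5.12 ± 0.42 (adjusted p = 3.23e-05) separated the groups with no overlap and with little spread within either. Tnc, tenascin-C of healing borders, rose by 5.30 ± 0.74, Thbs1, thrombospondin 1, by 4.85 ± 0.57, and Ltbp2, a latent TGF-β binding protein of microfibrils, by 4.59 ± 0.49. Spp1, osteopontin, made by macrophages as well as in matrix and counted in both lists, was different in its spread. It read 4.67, 4.86 and 4.62 after sham surgery and 7.91, 10.04 and 13.08 at 5 days, so that its rise of 5.63 ± 1.11 (adjusted p = 0.00484) ranged widely from array to array.

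**Figure D1:**
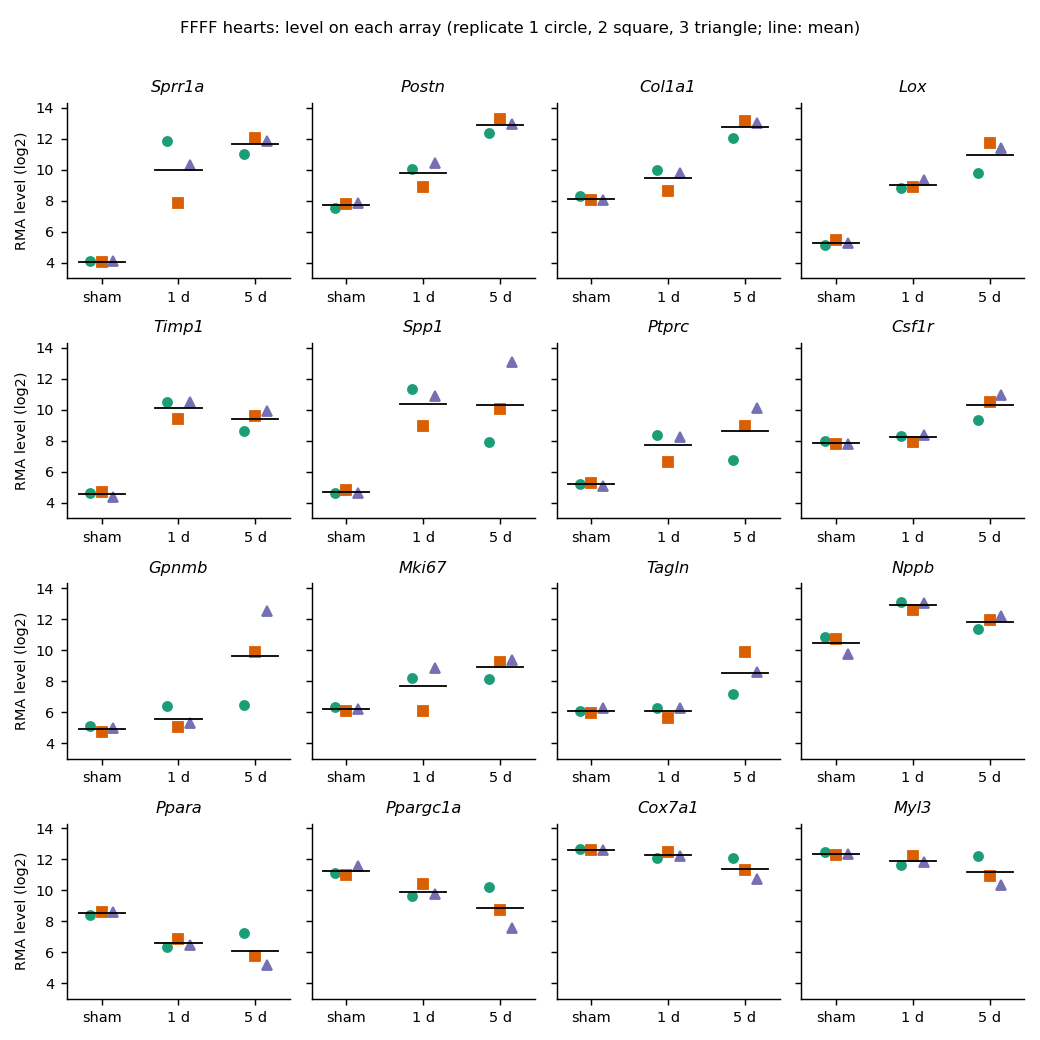
RMA level (log2, y axis) of 16 genes on each FFFF array after sham surgery and at 1 day and at 5 days (x axis), with circles, squares and triangles for replicates 1, 2 and 3 and a line at the mean. The 5-day arrays of Postn and Col1a1 stand together, whereas Spp1, Gpnmb and Ptprc spread over several log2 units, with replicate 3 highest, and Ppara and Ppargc1a spread downward, with replicate 3 lowest.

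Enzymes that fold and cross-link collagen rose as well, 17 of 21 members, by a median of 1.41. Lox, the lysyl oxidase that starts cross-linking, read 5.14, 5.45 and 5.29 after sham surgery and 9.79, 11.72 and 11.39 at 5 days, a rise of 5.68 ± 0.38 (adjusted p = 5.74e-06). No 5-day array was within 4 log2 units of a sham array. P4ha3, a prolyl hydroxylase subunit, rose by 3.90 ± 0.65, Adamts2, which removes procollagen propeptides, by 3.25 ± 0.32, and Loxl3 by 3.14 ± 0.38. Leaving out any one of the 6 arrays left 17 to 19 collagens, 26 to 28 matrix glycoproteins and 15 to 17 of these enzymes called.

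Matrix proteases and their inhibitors were divided. Of 21 genes, 9 rose and 1 fell. Timp1, the inducible inhibitor of metalloproteinases, read 4.67, 4.69 and 4.38 after sham surgery and 8.64, 9.64 and 9.95 at 5 days and rose by 4.83 ± 0.42 (adjusted p = 5.51e-05). Timp4, the inhibitor typical of the heart, went the other way, from 8.53, 8.22 and 8.49 to 7.42, 5.01 and 4.93, and fell by 2.63 ± 0.76 (adjusted p = 0.0291). Replicate 1 fell least, and the call was kept only in the fit without it among the 6 fits with an array left out. Mmp14, a membrane-bound collagenase of fibroblasts and macrophages, rose by 4.02 ± 0.39, Adamts12 by 2.73 ± 0.42 and Mmp23 by 2.21 ± 0.28.

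In the TGF-β and activin pathway, 8 of 20 genes rose and 1 fell. Tgfb3 rose by 2.29 ± 0.40, Tgfb2 by 1.58 ± 0.41 and Tgfb1 by 1.56 ± 0.26 (adjusted p = 0.00284, 0.0176 and 0.00196), Tgfbr1, the type I receptor, by 1.89 ± 0.44, and Ltbp3, which tethers the latent ligand to matrix, by 1.76 ± 0.23. Bmp4, a ligand of the other branch of the family, fell by 1.08 ± 0.29. The calls for Tgfb2 and Bmp4 were each kept in 3 of the 6 fits with an array left out. Secreted Wnt modulators included some of the steepest rises. Sfrp2, a secreted Frizzled-related protein, read 5.43, 5.96 and 5.59 after sham surgery and 9.84, 12.14 and 11.62 at 5 days, a rise of 5.54 ± 0.65 (adjusted p = 0.000295) with no overlap. Its relatives Sfrp1 and Frzb rose by 3.04 ± 0.54 and 3.03 ± 0.39, and Ccn4, a Wnt-induced matricellular protein, by 2.70 ± 0.51, whereas Wif1, the Wnt inhibitory factor, fell by 0.52 ± 0.14. In all, 7 of 16 genes of that list rose and 1 fell. Wif1 was at or below 5.66 throughout, in the lower part of the range.

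Ptn, the heparin-binding growth factor pleiotrophin, belongs to no list and was among the largest rises. It read 4.95, 5.86 and 5.70 after sham surgery and 9.87, 10.87 and 10.81 at 5 days and rose by 5.01 ± 0.53 (adjusted p = 0.000138). Of genes of tendon and cartilage that appear in mature scar, 7 of 14 rose. Cilp, the cartilage intermediate layer protein, read 4.81, 4.90 and 4.91 and then 8.95, 9.29 and 9.68, a rise of 4.43 ± 0.50, and Thbs4, the thrombospondin of tendon and muscle, read 5.79, 6.03 and 5.93 and then 9.92, 9.79 and 10.74, a rise of 4.23 ± 0.29 (adjusted p = 0.000237 and 5.74e-06). For both genes the 3 arrays at 5 days lay within 1 log2 unit of each other. Fmod, fibromodulin, rose by 2.85 ± 0.51 with a wider spread.

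Markers of resting fibroblasts changed less as a group, with 5 of 15 up, none down and a median of -0.05. Mfap4, a microfibril protein that is also in the matrix list, rose by 4.26 ± 0.68, Dpt by 1.39 ± 0.36, Cd248 by 1.21 ± 0.30, Tcf21, the fibroblast lineage factor, by 1.19 ± 0.29, and Pdgfra, a growth factor receptor of fibroblasts, by 0.85. Without 5-day replicate 2, replicate 3 or sham replicate 2 only 2, 3 and 3 members passed. Contractile genes of myofibroblasts rose in 10 of 16 cases (6 without 5-day replicate 2). Tagln, transgelin of stress fibers, read 6.06, 5.96 and 6.29 after sham surgery and 7.16, 9.85 and 8.58 at 5 days, a rise of 2.43 ± 0.52 (adjusted p = 0.00673), highest in replicate 2. Cnn1, calponin, rose by 3.46 ± 0.89, Actn1, α-actinin 1, by 2.31 ± 0.50, and Cdh11, a cadherin between myofibroblasts, by 2.23 ± 0.36. Acta2, smooth muscle α-actin and the usual myofibroblast marker, was already high in sham hearts, at 11.24, 11.59 and 11.13, and read 11.34, 12.41 and 11.80 at 5 days, overlapping groups with a difference of 0.53 ± 0.50 (adjusted p = 0.561). The CArG box, the site of serum response factor, was found in the promoters of 3 of the 14 list members with a promoter sequence (21.4%), of 5 of 18 cardiomyocyte structural genes (27.8%), a list in which none rose, and of 1.81% of all 27025 genes with one.

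Cell division genes rose in 21 of 32 cases and none fell, with a median of 1.07. Mki67, the Ki-67 antigen of cycling cells, read 6.33, 6.10 and 6.23 after sham surgery and 8.14, 9.24 and 9.38 at 5 days, a rise of 2.70 ± 0.58 (adjusted p = 0.00679) with no overlap. Ccna2, cyclin A2, rose by 2.79 ± 0.63, Top2a, the topoisomerase of replication and mitosis, by 2.47 ± 0.57 and Prc1, which bundles the central spindle, by 2.11 ± 0.54. The number of calls depended on the arrays used, since 7 remained past the threshold without 5-day replicate 3 and 11 each without 5-day replicate 2 or sham replicate 2.

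Late cell cycle genes share 2 promoter elements, the CHR (letters TTTGAA), bound by the DREAM and B-MYB complexes, and CCAAT boxes, bound by NF-Y. In promoters of 300 bases around each start (RefSeq, GRCm38.p6), both elements were found on either strand in 11 of 26 list members with a sequence (42.3%), against 7.97% of all 27025 genes. CHR, with or without CCAAT, was found in 46.2% against 20.2%. CCAAT, with or without CHR, was found in 73.1% against 41.1%, and the 2 elements can overlap by 1 letter at most. The promoters of 3 of the genes named above are shown because they hold both, with the matches in capitals on the gene's own strand, where ATTGG is CCAAT and TTCAAA is TTTGAA on the other strand. A match describes the letters and not binding.
Mki67 promoter (chr7:135716330-135716629, minus strand): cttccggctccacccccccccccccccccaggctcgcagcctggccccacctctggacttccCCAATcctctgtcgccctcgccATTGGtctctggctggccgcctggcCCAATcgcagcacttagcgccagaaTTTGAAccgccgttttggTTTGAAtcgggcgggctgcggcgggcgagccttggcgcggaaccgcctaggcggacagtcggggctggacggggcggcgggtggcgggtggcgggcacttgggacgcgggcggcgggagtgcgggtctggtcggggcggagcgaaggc
Top2a promoter (chr11:99024140-99024439, minus strand): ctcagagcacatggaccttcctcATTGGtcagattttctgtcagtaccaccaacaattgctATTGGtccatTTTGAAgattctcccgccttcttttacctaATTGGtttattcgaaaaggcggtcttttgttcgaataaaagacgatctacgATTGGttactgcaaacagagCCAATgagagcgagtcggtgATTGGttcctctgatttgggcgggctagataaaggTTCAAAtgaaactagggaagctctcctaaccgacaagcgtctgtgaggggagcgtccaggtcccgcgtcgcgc
Prc1 promoter (chr7:80294201-80294500, plus strand): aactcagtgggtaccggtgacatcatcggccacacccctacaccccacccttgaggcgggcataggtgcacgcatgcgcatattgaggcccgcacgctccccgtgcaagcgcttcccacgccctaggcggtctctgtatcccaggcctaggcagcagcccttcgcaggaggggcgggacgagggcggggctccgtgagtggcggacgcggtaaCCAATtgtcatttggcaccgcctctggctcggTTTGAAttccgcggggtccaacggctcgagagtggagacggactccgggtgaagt

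Leukocyte genes rose broadly, and the 3 arrays at 5 days differed most here. Of 15 genes common to all leukocytes 15 rose, by a median of 2.22. Ptprc, the CD45 antigen, read 5.24, 5.28 and 5.09 after sham surgery and 6.79, 8.96 and 10.10 at 5 days, a rise of 3.41 ± 0.73 (adjusted p = 0.00691). Every 5-day array was above every sham array, and replicate 3 stood more than 3 log2 units above replicate 1. Cd52 rose by 3.68 ± 0.85, Lcp1, the leukocyte plastin, by 3.06 ± 0.58 and Itgb2, the β2 integrin, by 2.97 ± 0.66, with the same order of arrays.

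Macrophage genes rose as broadly. Of 26 genes of recruited and repair macrophages, 22 rose and the median was 2.64. Ms4a7, a marker of macrophages derived from monocytes, read 4.82, 4.68 and 4.31 after sham surgery and 7.87, 10.06 and 10.44 at 5 days and rose by 4.85 ± 0.50 (adjusted p = 0.000131). Csf1r, the receptor for macrophage colony-stimulating factor, rose by 2.44 ± 0.32 and Cd68 by 3.65 ± 0.46. Gpnmb, a glycoprotein of lipid-laden phagocytes, read 5.13, 4.68 and 4.96 in sham hearts but 6.45, 9.90 and 12.52 at 5 days, so that a rise of 4.70 ± 1.02 (adjusted p = 0.00733) spanned 6 log2 units between arrays. Mpeg1, perforin 2 of phagocytes, rose by 4.59 ± 0.59. Arg1, arginase 1, was not called, at 4.89, 4.37 and 4.81 after sham surgery and 5.29, 5.27 and 5.09 at 5 days (difference 0.53 ± 0.56, adjusted p = 0.613). Genes of resident cardiac macrophages did not follow, with 1 of 10 up (F13a1, by 1.20 ± 0.26), 2 down (Timd4, by 0.41 ± 0.09, and Mgl2, by 0.58 ± 0.16) and 7 not called. Over all features 8.26% rose and 10.0% fell, and with 10 genes these counts are not read as a change of the list. Timd4 read 4.71, 4.32 and 4.63 after sham surgery and 4.18, 4.11 and 4.15 at 5 days, below the array median throughout. With single arrays left out 1 to 3 of the list fell, and the call for Mgl2 was kept in 2 of the 6 fits.

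Genes of lysosomes and phagocytosis rose in 18 of 20 cases. Ctss, cathepsin S of antigen-presenting cells, read 6.47, 6.67 and 6.39 after sham surgery and 9.04, 11.30 and 12.72 at 5 days, a rise of 4.51 ± 0.70 (adjusted p = 0.00162), and Ctsk and Gusb rose by 2.59 ± 0.51 and 2.20 ± 0.43. Complement genes rose in 11 of 15 cases (6 without 5-day replicate 3). C3ar1, the C3a receptor, rose by 3.77 ± 0.57, C1qc and C1qb, chains of the macrophage product C1q, by 2.58 ± 0.35 and 2.43 ± 0.34, and C4b, made by fibroblasts as well, by 2.25 ± 0.24. C4b read 5.35, 5.11 and 5.10 after sham surgery and 7.34, 7.84 and 7.12 at 5 days, with 5-day arrays close together and far from sham.

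MHC class II genes, which present antigen, rose in 5 of 8 cases, but in only 1 without 5-day replicate 2, 5-day replicate 3 or sham replicate 3, and in 3 without sham replicate 1 or 2. The 5 were H2-Aa, H2-Ab1, H2-Eb1, H2-DMa and the invariant chain Cd74. H2-Aa, a class II chain, read 8.64, 8.81 and 8.03 after sham surgery and 8.98, 11.21 and 11.31 at 5 days, a rise of 2.00 ± 0.54 (adjusted p = 0.0201) that was small in replicate 1 and large in the other two. Of 18 interferon-stimulated genes only 2 rose, Xaf1 by 1.65 ± 0.29 and Irf7 by 1.59 ± 0.52 (adjusted p = 0.0483). Irf7, the factor that amplifies type I interferon, read 6.11, 6.04 and 5.68 after sham surgery and 6.32, 7.03 and 9.26 at 5 days, with replicate 3 alone far above the sham range. Without 5-day replicate 1, 11 of the 18 passed, with sex as a covariate 12, and without any other array 1.

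Few genes of other leukocytes passed. No neutrophil gene of 19 passed the limma test at 5 days, and Csf3r, the G-CSF receptor, had the smallest p of the list, with 5.36, 4.82 and 5.04 after sham surgery and 5.38, 6.68 and 6.94 at 5 days (difference 1.26 ± 0.62, adjusted p = 0.196). S100a9, a calgranulin of neutrophils, read 4.30, 4.65 and 4.34 at 5 days and 4.23, 4.15 and 4.11 in sham hearts, below the array median on every array. Of 23 T and NK cell genes 2 passed, Trac by 1.53 ± 0.49 and Cd8b1 by 0.41 ± 0.12, near the background share of rises, and no gene of the list passed without any one array other than 5-day replicate 1. Cd3e was not called (0.54 ± 0.21). Of 10 B cell genes 3 passed, Ighm, the immunoglobulin μ chain, by 2.10 ± 0.41, Cd22 by 0.64 ± 0.16 and Cd79b by 0.40 ± 0.11, and 1 passed without 5-day replicate 2 or 3. The median of that list was 0.003 with 5 of 10 differences positive, where 8.26% of all features rose. Cd22 and Cd79b had sham means of 4.23 and 4.31, below the array median. Mast cell genes gave 0 of 9.

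Among 27 chemokine genes 5 rose (3 each without 5-day replicate 3, sham replicate 1 or sham replicate 2, and 12 without 5-day replicate 1). Cxcl16, a membrane-bound chemokine and scavenger receptor of macrophages, rose by 2.74 ± 0.38, Ccl8 by 2.50 ± 0.51, Cx3cl1, fractalkine, by 1.16 ± 0.18, Cxcl12, which retains stem cells and lymphocytes, by 0.52 ± 0.15 and Ccl4 by 0.45. Ccl2, the main attractant of monocytes, read 4.83, 4.83 and 4.96 after sham surgery and 5.89, 5.98 and 8.61 at 5 days. All 3 arrays were above sham, replicate 3 by far, and the difference of 1.95 ± 0.81 did not pass (adjusted p = 0.12), nor did that of Ccl3 (2.02 ± 0.76, adjusted p = 0.0843).

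**Figure D2:**
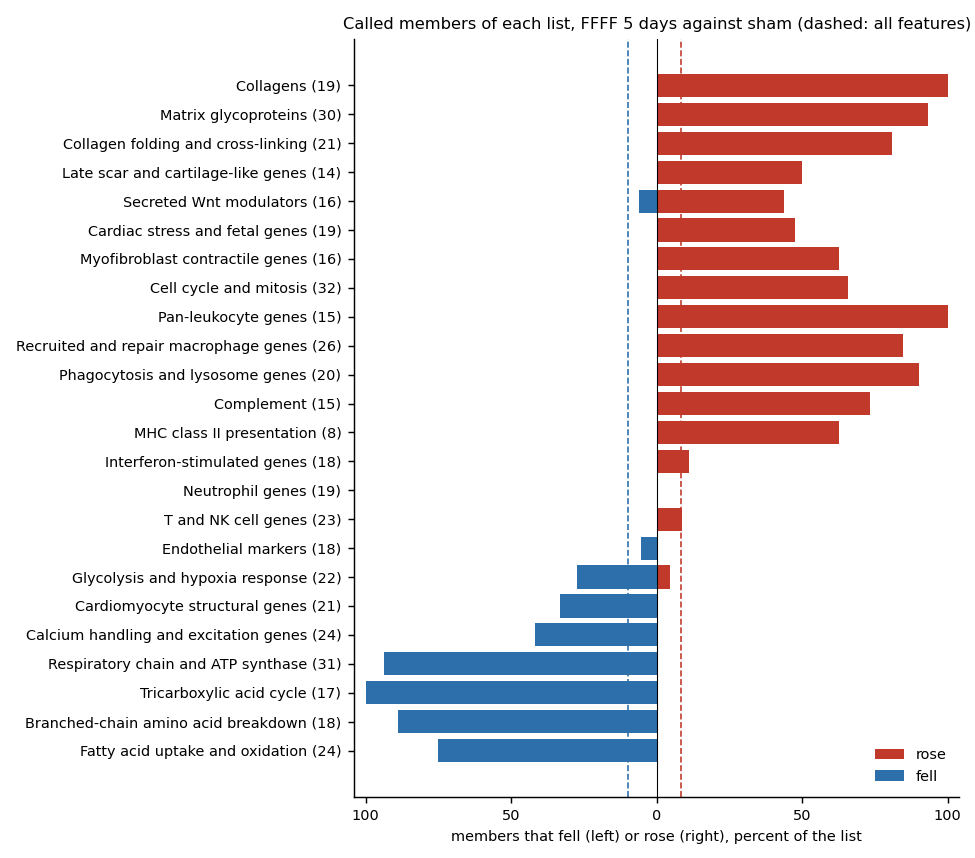
Share of each gene list (number of genes in brackets) called at 5 days against sham in FFFF hearts, in percent, with rises to the right in red and falls to the left in blue; dashed lines mark the 8.26% and 10.0% of all features that rose and fell. Collagens and pan-leukocyte genes reach 100% on the right, followed by matrix glycoproteins, lysosome and macrophage genes, and the respiratory chain, tricarboxylic acid cycle and branched-chain lists furthest to the left, while neutrophil, T cell and endothelial lists stay near 0 or the background.

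Stress genes of the cardiomyocyte rose in 9 of 19 cases. Nppa, atrial natriuretic peptide, read 12.80, 13.17 and 12.49 after sham surgery and 13.93, 13.93 and 13.93 at 5 days, which is the highest value that any feature takes in the table. Its rise of 1.11 ± 0.12 (adjusted p = 0.000169) therefore stops at a ceiling and shows only that it passed to the top of the range. The ceiling also leaves an SD of 0 at 5 days, against 0.34 in sham hearts, which lowers the shared SE and the adjusted p. Nppb, the brain natriuretic peptide, read 10.83, 10.73 and 9.76 and then 11.36, 11.97 and 12.18, a rise of 1.40 ± 0.29 (adjusted p = 0.00554). Acta1, the skeletal α-actin of fetal hearts, rose by 1.30 ± 0.25, Runx1, a transcription factor of leukocytes and of stressed cardiomyocytes, by 3.10 ± 0.50, and Dab2 by 1.65 ± 0.24. Myh7, the β-myosin heavy chain and a classical fetal gene, did not pass, at 9.0, 9.11 and 8.99 after sham surgery and 9.71, 8.41 and 8.69 at 5 days (difference -0.10 ± 0.86, adjusted p = 0.965).

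Of 21 structural genes of the cardiomyocyte 7 fell and none rose, with a median of -0.49. Myl3, the ventricular essential light chain, read 12.44, 12.26 and 12.34 after sham surgery and 12.22, 10.91 and 10.37 at 5 days, and fell by 1.18 ± 0.34 (adjusted p = 0.0283). Replicate 1 was just below the sham range and the others were more than 1 log2 unit below it. Tnni3, cardiac troponin I, fell by 0.72 ± 0.18 and Myom1, a protein of the M band, by 0.74 ± 0.21, while Myh6 did not pass (-0.58 ± 0.20, adjusted p = 0.0598). The count was 14 without 5-day replicate 1, 0 without replicate 2 or 3, 2 without sham replicate 1 and 1 without sham replicate 2 or 3.

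Genes of calcium handling and excitation fell in 10 of 24 cases. Kcnj3, a subunit of the acetylcholine-activated potassium channel, read 9.65, 9.59 and 9.67 after sham surgery and 8.83, 6.80 and 5.35 at 5 days, and fell by 2.64 ± 0.76 (adjusted p = 0.0284). Kcnip2, the subunit needed for the transient outward current, read 9.74, 9.996 and 10.17 and then 9.33, 7.40 and 5.90, and fell by 2.43 ± 0.80, just past the threshold (adjusted p = 0.0497). In both, 5-day replicate 1 was close to sham and replicate 3 more than 3 log2 units below. Hrc, a calcium-binding protein of the sarcoplasmic reticulum, fell by 2.35 ± 0.57, Atp2a2, the SERCA pump, by 0.67 ± 0.20 and Kcnj11 by 1.44 ± 0.36. With 1 array left out, 15 of the list passed without 5-day replicate 1, 3 without replicate 2, 1 without replicate 3 and 4 or 5 without a sham array. Mylk4, a myosin light chain kinase of heart muscle, had the largest fall among features whose groups did not overlap, from 10.14, 10.22 and 10.90 to 9.19, 6.50 and 5.56, and fell by 3.34 ± 0.76 (adjusted p = 0.0092).

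Of the microRNA genes, Mir208a of cardiomyocytes had the largest fall. The feature of Mir208a lies within Myh6 (chr14:54941921-54968017, GRCm38.p6), and read 6.51, 5.91 and 7.01 after sham surgery and 4.94, 4.42 and 4.28 at 5 days, and fell by 1.93 ± 0.31 (adjusted p = 0.00179) that was kept with every array left out. Of 32 microRNA genes in the list 2 fell, the other being Mir133a-1 (by 0.55 ± 0.18), and 1 rose, the long non-coding host transcript Dnm3os (by 1.06 ± 0.28, adjusted p = 0.0184), which spans the miR-199a-2 and miR-214 hairpins on chr1 and is active in mesenchymal cells. Over all features 10.0% fell and 8.26% rose, so that neither count was above the background share. Mir133a-1 had means of 4.36 after sham surgery and 3.81 at 5 days, near the lower end of the range. The calls for Mir133a-1 and Dnm3os were each kept in 2 of the 6 fits with an array left out. All of the list but a few had sham means below the array median. These probes measure the gene or precursor and not the mature microRNA. Neither hairpin inside Dnm3os was matched to a feature of its own. The mature sequences of Mir208a and of the 2 microRNAs inside Dnm3os are shown (RefSeq, GRCm38.p6), with the seed, bases 2 to 8, in capitals. The 4 seeds differ, so that they form no family by seed.
mmu-miR-208a-3p: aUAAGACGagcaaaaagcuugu
mmu-miR-199a-5p: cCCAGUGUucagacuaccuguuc
mmu-miR-199a-3p: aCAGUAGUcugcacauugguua
mmu-miR-214-3p: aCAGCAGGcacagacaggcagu

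Genes of oxidative metabolism fell together. All 17 genes of the tricarboxylic acid cycle passed, as did 29 of 31 respiratory chain and ATP synthase genes, 16 of 18 of branched-chain amino acid breakdown and 18 of 24 of fatty acid uptake and oxidation, and none of these rose. Their medians were -0.96, -0.86, -1.46 and -1.23. Ppara, the nuclear receptor that drives fatty acid oxidation, read 8.39, 8.60 and 8.58 after sham surgery and 7.23, 5.74 and 5.19 at 5 days, and fell by 2.47 ± 0.44 (adjusted p = 0.00305). The 5-day arrays were all below sham, by about 1 log2 unit in replicate 1 and by about 3 in replicate 3. Ppargc1a, the coactivator PGC-1α of mitochondrial biogenesis, read 11.12, 11.004 and 11.54 and then 10.19, 8.76 and 7.59, and fell by 2.38 ± 0.55 (adjusted p = 0.0101). Ucp3 and Eci1, 2 mitochondrial proteins of fatty acid use, fell by 2.17 ± 0.71 and 1.89 ± 0.45.

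Falls of respiratory chain genes had a smaller median. Cox7a1, the heart and muscle form of a cytochrome oxidase subunit, read 12.65, 12.59 and 12.63 after sham surgery and 12.08, 11.31 and 10.71 at 5 days, and fell by 1.26 ± 0.25 (adjusted p = 0.00481), with sham arrays nearly equal and 5-day arrays over more than 1 log2 unit. Uqcrfs1, the Rieske protein of complex III, Cyc1, cytochrome c1, and Sdhc of complex II fell by 1.33 ± 0.26, 1.30 ± 0.32 and 1.30 ± 0.36. In the tricarboxylic acid cycle, the succinyl-CoA ligase subunits Suclg2, Suclg1 and Sucla2 fell by 1.42 ± 0.29, 1.24 ± 0.25 and 1.18 ± 0.23, and Mpc2, a subunit of the mitochondrial pyruvate carrier, by 1.40 ± 0.33. For leucine, isoleucine and valine, Mccc1, a carboxylase of leucine breakdown, read 9.59, 9.60 and 8.98 and then 7.61, 6.50 and 6.92, and fell by 2.39 ± 0.41 (adjusted p = 0.00263), Bckdhb of the dehydrogenase complex fell by 2.13 ± 0.38, its phosphatase Ppm1k by 2.12 ± 0.53 and Klf15, a transcription factor that drives this pathway, by 2.28 ± 0.61.

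These counts rested on single arrays more than those of the matrix. Without 5-day replicate 3, 7 respiratory chain, 7 tricarboxylic acid cycle, 6 branched-chain and 3 fatty acid genes were called, and without replicate 2 11, 8, 10 and 6. Without sham replicate 1 or 2 they were 19 and 19, 12 and 11, 14 and 13, and 7 and 7, and without sham replicate 3 9 fatty acid genes passed. Glycolysis and hypoxia genes changed less, with 6 of 22 down, among them the glucose transporter Slc2a4 by 1.76 ± 0.55, Egln3 by 1.63 ± 0.40 and hexokinase Hk2 by 1.18 ± 0.31, and 1 up, Pfkp, the platelet phosphofructokinase, by 0.82 ± 0.17. No more than 2 of these falls passed without any one of 5-day replicates 2 and 3 and the sham arrays, and 9 without 5-day replicate 1.

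Among the other large falls were enzymes of lipid handling. Ces1d, a carboxylesterase that releases stored lipid, read 9.19, 8.75 and 9.63 after sham surgery and 8.69, 5.42 and 3.74 at 5 days, and fell by 3.24 ± 0.87 (adjusted p = 0.0197), and Dgat2, which makes triglyceride, fell by 2.86 ± 0.87. These calls were kept in 2 and 1 of the 6 fits with an array left out, in both cases in the fit without 5-day replicate 1. Pfkfb1, which sets fructose 2,6-bisphosphate, fell by 2.70 ± 0.38, and Gstk1, a mitochondrial and peroxisomal glutathione transferase, by 2.57 ± 0.44. Ogdhl, a relative of oxoglutarate dehydrogenase, was unusual in that one sham array was already low. It read 8.71, 8.65 and 4.95 after sham surgery and 4.37, 4.37 and 4.80 at 5 days, and fell by 2.92 ± 0.70 (adjusted p = 0.0123) with sham replicate 3 next to the 5-day arrays. Atp6v1g1, a subunit of the proton pump of lysosomes, fell by 3.11 ± 0.59, from 7.87, 8.78 and 7.54 to 5.17, 5.005 and 4.67, a fall of similar size in every 5-day array.

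Few endothelial markers passed. Of 18 genes 0 rose and 1 fell, Kdr, the main VEGF receptor, by 0.82 ± 0.22 (adjusted p = 0.0218). The count was 5 without 5-day replicate 1, 4 with sex as a covariate and 9 with the 5-day male arrays left out, but 0 without 5-day replicate 2 or 3 or sham replicate 1 or 2, and the call for Kdr was kept in 2 of the 6 fits with an array left out. Pecam1, CD31, read 10.56, 10.52 and 10.33 after sham surgery and 10.70, 10.87 and 10.46 at 5 days, overlapping values with a difference of 0.20 ± 0.16 (adjusted p = 0.453). Of 20 genes of vessel growth 4 rose and 2 fell, where 8.26% of all features rose and 10.0% fell, so that the falls were at the background share. Vegfd rose by 2.46 ± 0.49, Plvap, of fenestrated and growing endothelium, by 1.78 ± 0.33, Nrp2, a VEGF co-receptor, by 1.08 ± 0.27 and Hif1a by 1.10 ± 0.19, whereas Vegfb, a ligand linked to lipid uptake, fell by 1.07 ± 0.31 and Fgf2 by 0.61 ± 0.19, neither of which fell without 5-day replicate 2 or any one sham array.

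Among 13 genes of mesothelium and epicardium 2 rose, Aldh1a2, which makes retinoic acid, and Krt18 (by 0.81 ± 0.20). Aldh1a2 read 5.38, 5.18 and 5.16 after sham surgery and 8.17, 7.76 and 8.28 at 5 days, a rise of 2.83 ± 0.29 (adjusted p = 0.000107), while the mesothelial marker Upk3b did not pass. Of 12 Schwann cell and nerve genes 2 fell, among them Cdh19 by 0.65 ± 0.15, and 1 rose, Prnp, by 0.41 ± 0.13. Fat and erythroid lists had no call in either direction, and 1 of 8 lung genes (Napsa) and 1 of 13 skeletal muscle genes (Acta1, shared with the stress list) rose, while 1 skeletal muscle gene, the creatine kinase Ckm, fell by 0.93 ± 0.27. The call for Napsa was kept in 2 of the 6 fits with an array left out, and that for Prnp in 1.

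The 3 arrays at 5 days were much further apart than the sham arrays. The SD over 3 arrays exceeded 1 in 498 features at 5 days, 16 in sham hearts, 93 in FFFF hearts at 1 day and 59 in DKO hearts at 5 days. Among the 4475 called features the median SD was 0.36 at 5 days and 0.12 in sham hearts. Measured against the sham mean, 513 features differed by at least 1 in replicate 1, 2423 in replicate 2 and 3271 in replicate 3, and the correlation with the sham mean across features was 0.983, 0.944 and 0.917. Replicate 1 had the smallest change in 92.2% of the features that rose and 86.2% of those that fell, and replicate 3 the largest in 61.3% and 73.7%. Replicates 1 and 2 were male, and replicate 3, with the largest changes, was the female heart. In DKO hearts at 5 days, replicates 1 and 2 were also male and replicate 3 female, but replicate 3 changed least. Against the DKO sham mean, the features that rose in FFFF hearts changed there by a mean of 1.025, 0.83 and 0.71. Those that fell changed by -0.75, -0.56 and -0.40. What set the 3 FFFF hearts apart was not tested.

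**Figure D3:**
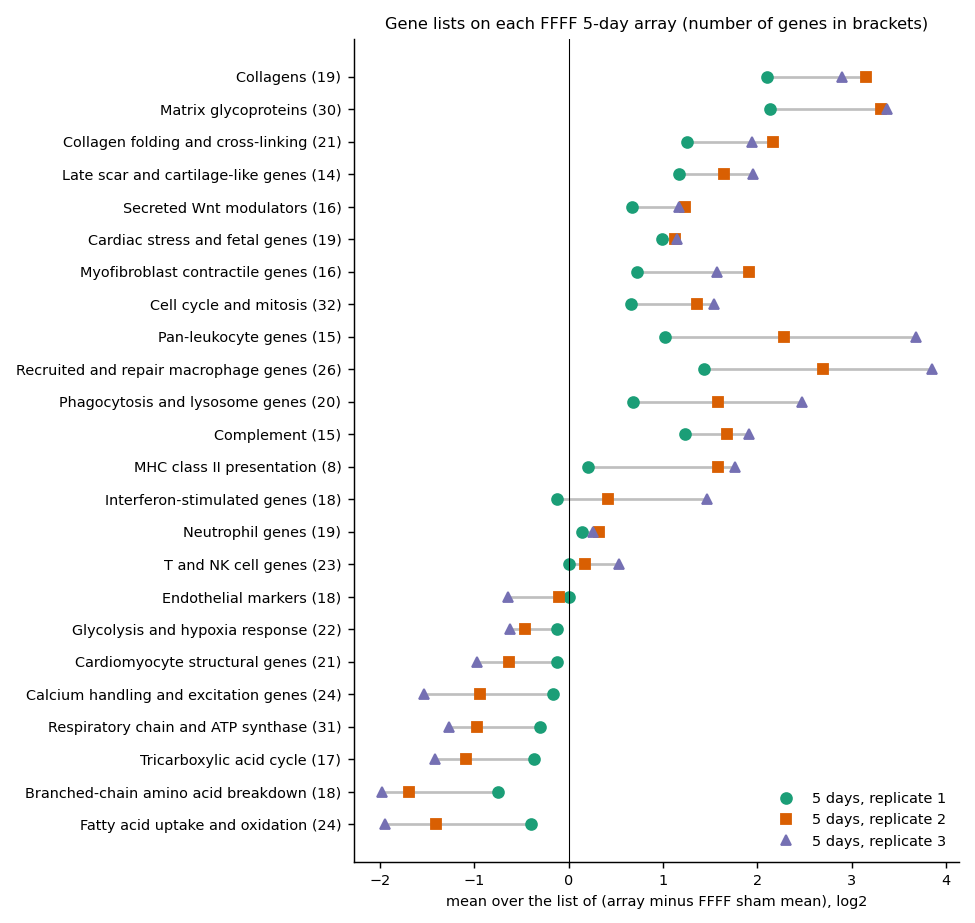
Mean change of each gene list on each FFFF 5-day array against the sham mean (x axis, log2; number of genes in brackets), with circles, squares and triangles for replicates 1, 2 and 3. For collagens the 3 arrays lie between 2.10 and 3.15, for pan-leukocyte genes between 1.02 and 3.68, and for fatty acid genes between -0.40 and -1.94.

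The spread was not the same for all programs. The mean change of the collagen list was 2.10, 3.15 and 2.90 in replicates 1, 2 and 3, and that of the matrix glycoprotein list 2.13, 3.31 and 3.38, so that replicate 1 had 72.5% and 63.1% of the change of replicate 3. Stress and fetal genes changed by 0.99, 1.12 and 1.15, or 85.9%, a mean that includes Nppa at its ceiling on all 3 arrays. Among called members of that list, the 5-day levels of Runx1, Dab2 and Nppb were lower in replicate 1 than in replicate 3. Runx1 read 6.64, 8.64 and 8.92. Mybpc2 was higher in replicate 1 than in replicate 3. The mean changes were 1.02, 2.29 and 3.68 for pan-leukocyte genes (27.7%), 1.43, 2.69 and 3.85 for recruited macrophage genes (37.2%) and 0.68, 1.58 and 2.48 for lysosomal genes (27.5%). For genes that fell, the changes were -0.40, -1.41 and -1.94 for fatty acid oxidation (20.7%), -0.31, -0.98 and -1.27 for the respiratory chain (24.3%), -0.17, -0.94 and -1.53 for calcium handling (11%) and -0.13, -0.63 and -0.97 for structural genes (13.1%). Not all lists of one kind were alike, since complement genes were at 64.4% and neutrophil genes, which changed little, at 53.2%, while matrix proteases were at 50.6%. By list means, the part of the change found in replicate 1 was thus larger for collagens, matrix glycoproteins, stress genes and complement than for pan-leukocyte, macrophage, lysosomal and metabolic genes.

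Replicates 2 and 3 differed in another way. Replicate 2 had as much collagen and myofibroblast change as replicate 3 (myofibroblast contractile genes 0.72, 1.92 and 1.57) but less change in pan-leukocyte, macrophage, lysosomal and interferon-stimulated genes, the last of which changed by -0.13, 0.41 and 1.47. MHC class II genes changed by 0.20, 1.58 and 1.76, nearly alike in replicates 2 and 3, and B cell and neutrophil genes changed slightly more in replicate 2, by 0.12, 0.41 and 0.31 and 0.14, 0.32 and 0.26. The list mean of resting fibroblast markers ran in the opposite order, 0.81, 0.47 and 0.11. The called members Mfap4, Dpt, Cd248 and Tcf21 did not follow it and were each lowest in replicate 1. Tcf21 read 6.61, 7.65 and 7.26. Cell cycle genes changed by 0.66, 1.36 and 1.54. Of the 8 called features with the largest SD at 5 days, Ces1d fell and the rest rose, among them Gpnmb, Cd52 and Spp1. Clec12a and Cd180, receptors of myeloid and antigen-presenting cells, read 5.75, 8.60 and 10.30 and 5.45, 8.19 and 10.15 at 5 days, and Itgax, CD11c, and Slamf7 read 4.61, 5.79 and 8.69 and 4.78, 7.07 and 9.62. In each of these, replicate 1 was lowest and replicate 3 highest. In the fit of the 6 arrays alone, which takes the spread only from them, 15 collagens, 22 matrix glycoproteins and 9 recruited macrophage genes passed, against 0 pan-leukocyte, 1 respiratory chain, 0 fatty acid and 0 structural genes.

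**Figure D4:**
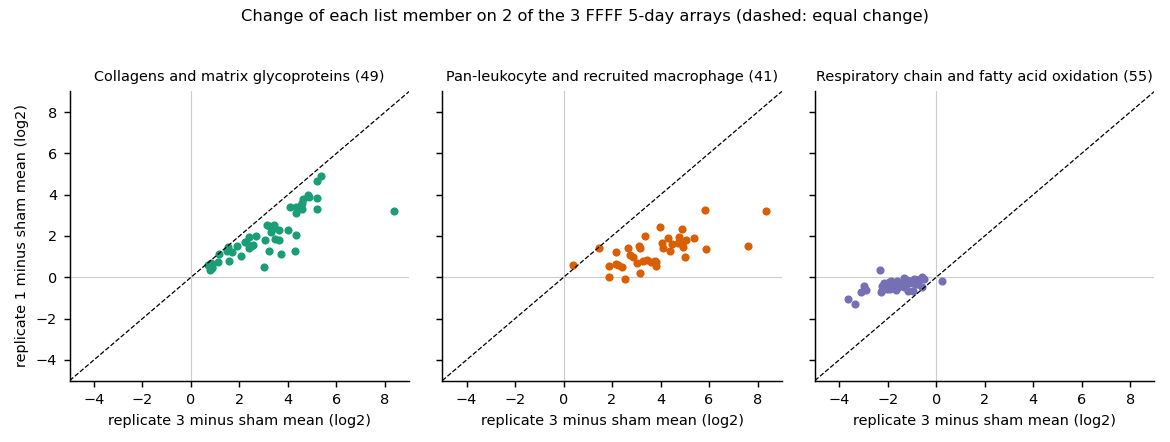
Change against the sham mean (log2) of each member of 3 pairs of lists in FFFF 5-day replicate 1 (y axis) against replicate 3 (x axis), with equal change dashed and the number of genes in brackets. Matrix genes lie below but near the line, with Spp1 far to the right, while leukocyte genes and oxidative genes lie along a flat band with smaller changes in replicate 1.

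The FFFF hearts at 5 days were also compared directly with those at 1 day. Between the 2 groups 1531 features passed (6.25%), 747 higher (3.05%) and 784 lower (3.20%) at 5 days. Collagens were higher at 5 days in 15 of 19 cases, matrix glycoproteins in 20 of 30, complement genes in 9 of 15 and both lysosomal and recruited macrophage genes in 10 of 20 and 10 of 26. Pan-leukocyte genes had 0 calls, and neutrophil genes were lower in 10 of 19. Matrix proteases were higher in 6 and lower in 5, and of the stress genes 5 were lower, Hspb1, Flnc, Xirp1, Ankrd1 and Nppb. Nppb read 13.08, 12.58 and 13.03 at 1 day and differed by -1.06 ± 0.29 (adjusted p = 0.0424). None of the fatty acid, tricarboxylic acid or calcium handling genes differed between the days by this test. The count was 604 and 809 without 1-day replicate 1 or 3, 513 and 667 without 5-day replicate 2 or 3, 2962 without 5-day replicate 1, 881 with sex as a covariate, and 261 with the 2 groups fitted alone.

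**Figure D5:**
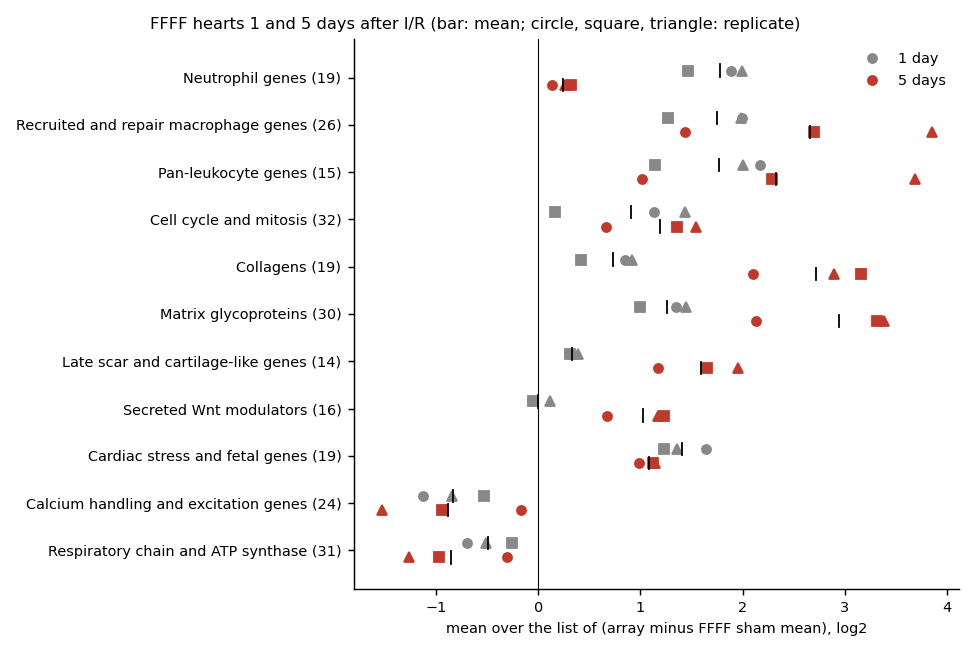
Mean change of 11 gene lists against the FFFF sham mean (x axis, log2; number of genes in brackets) on each FFFF array at 1 day (grey) and 5 days (red), with symbols for replicates and a bar at the mean. Neutrophil genes are high at 1 day only, collagens between 0.42 and 0.92 at 1 day and between 2.10 and 3.15 at 5 days, and respiratory chain genes are below 0 at both days.

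Except for Sfrp2, the genes with the largest rise between the days had 1-day means below the sham mean. Ptn read 4.51, 4.53 and 5.29 at 1 day, which is 5.74 ± 0.53 below its 5-day mean (adjusted p = 0.000324), and Sfrp2 read 5.56, 5.44 and 6.48, lower by 5.37 ± 0.65. Mfap4, Itgbl1, Col14a1 and Aspn followed, with differences of 5.16 ± 0.68, 4.61 ± 0.72, 4.35 ± 0.60 and 4.34 ± 0.52. Other matrix genes were far above sham at 1 day as well, since Timp1 read 10.49, 9.45 and 10.50, Tnc 10.02, 8.77 and 10.23 and Thbs1 10.21, 9.59 and 9.30, and the days did not differ by the test. Of the neutrophil genes, S100a9 read 8.84, 7.71 and 8.19 at 1 day and was lower at 5 days by 3.82 ± 0.77 (adjusted p = 0.0118), and Cxcr2 and Il1r2 differed by -3.42 ± 0.65 and -3.77 ± 0.72. Lcn2, which neutrophils express as well, differed by -3.42 ± 0.64. Its level was 8.24, 7.31 and 7.14 already in sham hearts, 11.08, 12.77 and 12.61 at 1 day and 9.70, 8.80 and 7.70 at 5 days. Ankrd2, a stretch-responsive ankyrin repeat protein of striated muscle, read 9.40, 9.12 and 8.06 at 1 day and 4.97, 4.83 and 4.84 at 5 days, back in the sham range of 4.98, 4.71 and 5.08, and Prg4, lubricin, was lower by 3.36 ± 0.34. Arg1, not called against sham at 5 days, was at 8.21, 7.14 and 8.64 at 1 day (difference -2.79 ± 0.56, adjusted p = 0.0116).

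The response of the DKO hearts at 5 days, taken from their own sham arrays, was set against that of FFFF hearts by the interaction test in limma, and 0 of 24479 features passed (0%), with 979 at an unadjusted p under 0.05. The count was 1 with a variance trend and robust moderation, with sex as a covariate or without FFFF sham replicate 2, 2 without DKO 5-day replicate 3 and 5 without FFFF 5-day replicate 1. The standard errors do not show that the responses were alike. For Col1a1 the DKO response minus the FFFF response was -1.30 ± 0.59 (adjusted p = 0.999), and for Postn -1.54 ± 0.59, Ptprc -0.74 ± 1.03 and Ppara 0.60 ± 0.62. The DKO 5-day arrays changed by 2.37, 2.20 and 1.66 in the collagen list, 2.48, 1.91 and 1.86 in recruited macrophage genes and -0.81, -0.62 and -0.41 in the respiratory chain, a narrower range than the FFFF arrays. Between sham hearts, DKO minus FFFF differences were 2.24 for Sfrp2, 2.20 for Mfap4, 2.14 for Cilp and 1.65 for Postn, and none of these passed (adjusted p = 0.571, 0.665, 0.456 and 0.515). In that comparison 2 features passed (0.00817%), Nppa, higher by 0.88 in DKO hearts (adjusted p = 0.0488), and A1cf, which was chosen after its values were seen. No sham array of Nppa was at the ceiling described above, but all 5-day arrays of both genotypes were, which lowers the shared SE.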

How the data were processed

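RNA of 18 mouse hearts was hybridised to Affymetrix mouse gene 2.0 ST arrays, 3 for each of 6 groups of genotype and treatment. Per the labels and the study's methods, the authors normalised the scans by RMA with a custom probe assignment to Entrez genes and deposited log2 values for 24479 features, on which all arrays share one distribution. A symbol came from the platform annotation for 23281 features, from RefSeq for 556, and 642 have none.

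Groups came from the labels. Levels were fitted with limma 3.58.1 in R 4.3.3, with one mean for each of the 6 groups over all 18 arrays (12 residual degrees of freedom), empirical Bayes moderation, no filter on low values and Benjamini-Hochberg adjustment over all features. A feature was called at an adjusted p under 0.05. The study's methods used analysis of variance, which was run as an alternative. All adjusted p-values come from limma. The fit was also run on simulated data, and the outcome of that run is not reported here. No call or adjusted p rests on the simulation. It is not offered as evidence that a variance shared by all groups suits arrays whose spread differed between groups. Arrays have no read depth, and their number limits the precision.

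Named genes were the 15 largest rises and 15 largest falls among called features whose groups did not overlap, up to 4 called members of each list in its main direction and 2 in the other (or the member with the smallest p), the 8 called features with the largest SD at 5 days, the 6 largest differences each way between 5 days and 1 day, and fixed anchor genes. Genes outside this rule are given in counts by name and were chosen after their values were seen: Dcn, Ccn1, Pdgfra, H2-Eb1, Ccl4, Hspb1, Flnc, Xirp1, Ankrd1, Pdia5, A1cf and 3 small nucleolar RNAs. The members, lists and tests were chosen with earlier results of these data known. Of the 41 lists (731 features), 16 features are in more than 1. Alternatives were another variance model, array and group weights, a filter keeping 16091 features, centring, quantile normalisation, stricter thresholds, sex, the replicate number as a block, the compared groups alone and each array left out. List names that matched no feature, among them Cpt1b, Hadhb, Fabp3, Mpc1, Gapdh, Muc16, Ccl21a and several microRNAs, were not analysed here. Some genes that the rule names are not reported here. Sequences came from RefSeq tables.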

Additional observations from a re-analysis of the deposited data

Results flagged for a closer look

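FFFF hearts at 5 days and at 1 day, which are compared with the same sham arrays, differed in 1531 features by the direct limma test. Among the named genes with the largest differences, the 5-day level was higher by 5.74 in Ptn, 5.37 in Sfrp2, 5.16 in Mfap4, 4.61 in Itgbl1, 4.35 in Col14a1 and 4.34 in Aspn on the log2 scale. These encode secreted growth factors, Wnt modulators and matrix proteins. The difference was -3.98 in Ankrd2, -3.82 in S100a9, -3.77 in Il1r2, -3.42 in Lcn2, -3.42 in Cxcr2 and -3.36 in Prg4, of which S100a9, Il1r2, Lcn2 and Cxcr2 are expressed by neutrophils. Unlike S100a9, Il1r2 and Cxcr2, Lcn2 was above the array median on every sham array. No group was tested for outlying arrays, since each has 3.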

How the results depend on the processing

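The number of features called at 5 days against sham moved from 4475 to 1942 with the 5-day female array left out, 1759 at an adjusted p under 0.01, 1655 with a log2 difference of at least 1, 8066 with array weights and 1027 with the compared groups fitted alone. With single arrays left out it ranged from 1942 to 6075. For 5 days against 1 day, 1531 became 261 with the compared groups alone and 881 with sex as a covariate, and ranged from 513 to 2962 with single arrays left out. For the difference between DKO and FFFF responses, 0 became 1 with sex as a covariate and 1 with a variance trend and robust moderation, and ranged from 0 to 5. Of 166 called named genes none changed sign under any setting. Of these, 68 stayed called with the compared groups alone, 136 with sex as a covariate, 101 without 5-day replicate 3 and 105 without 5-day replicate 2.

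Some genes that were not called changed sign. The difference of Camk2g was -0.30 with the 5-day male arrays left out and -0.20 with sex as a covariate, and -0.13 to 0.34 with single arrays left out. That of Pecam1 was -0.0080 with the male arrays left out. That of Myh7 was 0.027 with the 5-day female array left out and 0.47 with sex as a covariate, and -0.48 to 0.17 with single arrays left out. That of Ankrd2 was -0.15 to 0.038 with single arrays left out. The cause was not tested.

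Same-numbered sham and 5-day arrays correlated at -0.04, 0.08 and -0.05 in their deviations from the group means. These values show no pairing by number, but with 3 arrays a group they cannot exclude it. With the replicate block 4251 features were called against sham, 1486 against 1 day and 0 for the difference between responses. The 3 arrays a group, the sham hearts all being female, and values near the lower end of the range, where few probes rise above background, limit what single genes show.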

Other observations

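Small nucleolar RNAs, which guide modification of ribosomal and other RNAs, rose in 37 of 106 features and fell in 0 (34.9% called), where 8.26% of all features rose. Of 20073 protein-coding features 1883 rose and 2276 fell (20.7% called), and of 539 microRNA features 16 rose and 12 fell (5.20% called). The count for small nucleolar RNAs was not repeated under the alternatives. AF357355, whose gene lies within Rian on chromosome 12, read 4.67, 4.22 and 4.55 after sham surgery and 7.17, 9.23 and 8.35 at 5 days, a rise of 3.77 ± 0.61 (adjusted p in limma = 0.00191). Its neighbour within Rian, AF357425, rose by 2.54 ± 0.50, and Snord13 by 2.96 ± 0.79. The call for Snord13 was kept in 2 of the 6 fits with an array left out, and its adjusted p in limma was 0.133 with sex as a covariate and 0.115 with the 5-day male arrays left out. These 3 were chosen after their values were seen.

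Of 22 chaperone and unfolded protein response genes 5 rose, Edem1, which helps to degrade misfolded proteins, by 1.63 ± 0.34, Creb3l1, a transcription factor for collagen secretion, by 1.28 ± 0.26, Sec61a1, the translocon channel, by 1.00 ± 0.22, Pdia3 by 0.94 ± 0.28 and Pdia5 by 0.87, and Dnajb9 fell by 0.60 ± 0.16. Clock genes fell in 3 of 15 cases, Ciart by 2.17 ± 0.63, Hlf by 1.84 ± 0.57 and Cry2 by 1.27 ± 0.37. None of the 3 was called without 5-day replicate 2 or 3 or without sham replicate 2 or 3, and the sources used here do not state the hour of sampling.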
